A study of Mus musculus with 6 samples.

Results

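The effect of calorie restriction (CR) on cardiac miRNAs was examined in old mice by setting 1 array of CR ventricle beside 1 array of ventricle from mice fed ad libitum (AL). C57BL/6J male mice were caged singly and entered the diets at 19 months of age, and after 12 weeks they were 22 months old. CR mice reached a restriction of 40% in steps, while AL mice ate freely throughout. Ventricular tissue of 6 mice was pooled for each group, so the spread between animals was not measured and no test within the pair was possible. Young mice (6 months) and middle-aged mice (15 months) were treated in the same way and are used here only for values beside the old pair. The arrays are miRCURY LNA arrays, on which locked nucleic acid probes capture Hy3-labelled RNA, and their values are normalized intensities without a unit. Of 1114 features named for mouse miRNAs, 714 had a value above 0 on both arrays of old mice and were compared. A further 27 had a value on the AL array alone, all at or below 0.0134, and 19 on the CR array alone, all at or below 0.0450, while 354 had none. The 714 include 17 features that name more than 1 miRNA, and members of a family can cross-hybridize because their sequences differ at few bases.

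A miRNA is cut from a hairpin precursor, whose arms are called 5p and 3p, and the arm that is loaded into an Argonaute protein represses mRNAs that pair with its seed, the bases at positions 2 to 8. Many miRNAs are transcribed together from clusters, and miRNAs with the same seed form a family with overlapping targets. In the heart, miR-1 and miR-133 are abundant products of cardiomyocytes, and the miR-208 and miR-499 hairpins lie in introns of myosin heavy chain genes. MiR-451a and miR-144 come from red blood cells, miR-126a from endothelium, and the miR-34 family is known as a target of p53 that increases in ageing and stressed hearts.

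Mature sequences of 580 of the 714 miRNAs were found in RefSeq (build GRCm38.p6). The sequences of the miRNAs on which the results turn are given from 5′ to 3′ with the seed in capitals. MiR-34b-5p (chr9:51103610-51103632, minus strand, within the bounds of Btg4 and Hoatz), miR-449a-5p (chr13:113037549-113037570, plus strand, within Cdc20b) and miR-34a-5p (chr4:150068473-150068494, plus strand) are shown because they share a seed.
miR-34b-5p: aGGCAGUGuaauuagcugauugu
miR-449a-5p: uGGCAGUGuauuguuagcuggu
miR-34a-5p: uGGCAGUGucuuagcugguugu

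The X-linked testis cluster is shown by the members with the highest signals or with shared seeds. MiR-743a-3p (chrX:66776760-66776781), miR-463-3p (chrX:66799236-66799257) and the 3 miR-465 members lie close together on the minus strand, and miR-201-3p (chrX:67988099-67988121) lies farther along the same strand. MiR-138-2-3p (chr8:94324359-94324379, plus strand, within Nup93) is no member of the cluster and is shown as a further miRNA called higher on CR.
miR-743a-3p: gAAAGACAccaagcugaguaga
miR-743b-3p: gAAAGACAucaugcugaauaga
miR-463-3p: uGAUAGACaccauauaagguag
miR-465a-5p: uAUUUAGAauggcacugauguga
miR-465b-5p: uAUUUAGAauggugcugaucug
miR-465c-5p: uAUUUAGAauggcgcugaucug
miR-201-3p: uGAACAGUgccuuucuguguagg
miR-883a-5p: uGCUGAGAgaaguagcaguuac
miR-138-2-3p: gCUAUUUCacgacaccagggu

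The let-7 family is shown because its members differ from let-7a-5p at 1 to 4 bases, while their ratios differed.
let-7a-5p: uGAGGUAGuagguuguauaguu
let-7b-5p: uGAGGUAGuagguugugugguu
let-7c-5p: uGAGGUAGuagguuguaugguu
let-7d-5p: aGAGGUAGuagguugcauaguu
let-7e-5p: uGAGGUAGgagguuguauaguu
let-7f-5p: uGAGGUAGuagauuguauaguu
let-7g-5p: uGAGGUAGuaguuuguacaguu
let-7i-5p: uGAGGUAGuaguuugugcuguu
miR-98-5p: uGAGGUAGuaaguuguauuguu

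The remaining sequences belong to bright miRNAs of muscle, blood and endothelium. MiR-133b-3p lies at chr1:20682834-20682855 on the plus strand in the noncoding gene Lincmd1, and miR-208a-3p at chr14:54949072-54949093 on the minus strand in Myh6. MiR-451a (chr11:78073186-78073207) and miR-144-3p (chr11:78073047-78073066) are neighbours on the plus strand. MiR-126a-3p lies at chr2:26591402-26591423 on the plus strand in Egfl7, and the 3 members of the miR-30 seed are shown beside them.
miR-133b-3p: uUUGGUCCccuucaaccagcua
miR-208a-3p: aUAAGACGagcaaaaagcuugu
miR-208b-3p: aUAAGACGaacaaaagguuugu
miR-499-5p: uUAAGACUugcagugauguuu
miR-451a: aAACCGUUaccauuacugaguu
miR-144-3p: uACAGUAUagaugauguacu
miR-126a-3p: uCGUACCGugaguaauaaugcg
miR-30a-5p: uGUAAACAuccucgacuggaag
miR-30c-5p: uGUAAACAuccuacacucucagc
miR-30e-5p: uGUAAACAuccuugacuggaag

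At the study's threshold of 1.5-fold, 90 of the 714 miRNAs (12.6%) were higher and 71 (9.94%) lower on the CR array of old mice. The median log2 ratio of CR to AL was -0.07. The paper reports fewer miRNAs in each direction for old mice, and the reason for the difference was not tested. Most of the 90 rises and 71 falls belonged to weak features. A detection floor was set at the 95th percentile of the viral miRNA features with a value on each array, which have no counterpart in mouse tissue. It lay at 0.955 on the AL array and 0.960 on the CR array. Of 55 viral features, 20 had a value on AL and 19 on CR, and 1 exceeded the floor on each array. The floor therefore depends on the few highest viral features. The floor was exceeded on both arrays by 177 miRNAs and on a single array by 27, while 510 stayed below it on both. Among the 204 miRNAs that exceeded it on 1 or both arrays, 7 (3.43%) were higher and 12 (5.88%) lower on CR, with a median log2 ratio of -0.23. Of the 7 rises 5 passed the floor through the CR array alone, and of the 12 falls 1 through the AL array alone. Among the 177 miRNAs above the floor on both arrays 2 (1.13%) were higher and 11 (6.21%) lower. The remaining 83 rises and 59 falls had both signals below the floor. For most of those named, the signals are given and no fold, while medians of lists and groups include their log2 ratios. Where a signal lay below the floor on a single array, a fold against the floor is given as a lower bound.

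The scatter of the ratios narrowed with signal. In 5 equal classes of mean signal the SD of the log2 ratio was 1.47 in the weakest class, 0.68 in the next, 0.39 in each of the following 2 and 0.25 in the brightest. Calls followed it, with 43 rises and 41 falls in the weakest class and 2 rises and 11 falls in the brightest. The median also moved with signal, from 0.16 in the weakest class to -0.25 in the brightest, so bright miRNAs were more often lower on CR. The values of each array were whole multiples of a smallest step, 1198 steps per unit on the AL array and 1312 on the CR array, and the lower of the 2 signals was 21 steps in the median miRNA of the weakest class against 3524 in the brightest. The lowest ratio of all, that of miR-582-5p, went from 148 steps to 2, and the highest, that of miR-471-3p, from 4 to 188.

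Features that do not come from mouse miRNA genes moved beside them. The 52 spike-in features with a value on both arrays had a median log2 ratio of -0.53, and 29 of them above the floor on both arrays had an SD of 0.10. They are known by their names as spike controls, and the sources used here do not say whether such RNAs were added to the samples. The 18 small RNA features, snoRNAs and spliceosomal and ribosomal RNAs of the tissue, had a median of -0.17, and the 10 above the floor on both arrays had a median of -0.24, close to the -0.24 of the mouse miRNAs above it. If spike-in RNAs were added, the spike-in features give the spread of labelling and hybridization only. The part of the scaling in the ratios of mouse miRNAs was not tested. Rescaling to the spike-in features raises every log2 ratio by 0.53, after which 281 miRNAs were called higher and 23 lower, so rises made up 92.4% of the calls in place of 55.9%. With values in whole steps, before the divisor of each array, every log2 ratio is higher by 0.13 and rises made up 68.9%. Adding the viral median as a background shifted the median by 0.17 and left 26 rises and 12 falls. Directions below are those of the deposited scale, and the counts of each list stand beside 12.6% higher and 9.94% lower over all 714 miRNAs. After spike-in scaling the medians of all 21 lists described below were above 0. Cyclic loess normalization also turned the medians of the endothelial, let-7, fibrosis, miR-15, miR-23/24/27 and miR-378 lists to values between 0.04 and 0.08, and quantile normalization those of the fibrosis, miR-15 and miR-378 lists.

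**Figure D1:**
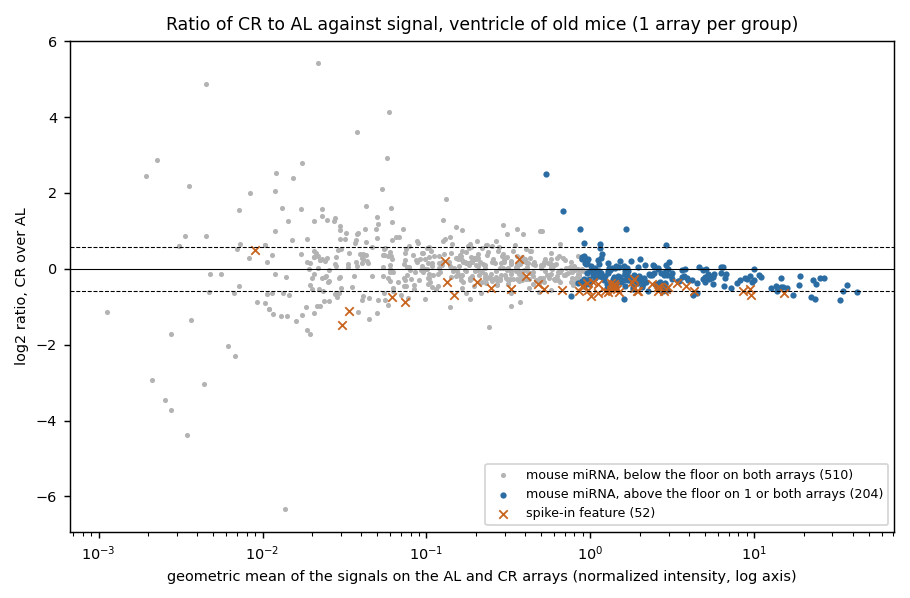
The log2 ratio of CR to AL in old mice is plotted against the geometric mean of both signals on a log axis for 714 mouse miRNAs, with 52 spike-in features as crosses and dashed lines at 1.5-fold. Ratios fan out below the floor, the bright miRNAs lie mostly below 0, and the spike-in features lie around -0.53.

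MiR-34b-5p and miR-34c-5p, which are made from neighbouring hairpins of a single transcript, were called higher, with AL signals below the floor and CR signals just above it. MiR-34b-5p had a signal of 0.225 on AL and 1.28 on CR, at least 1.34-fold higher against the floor of the AL array. MiR-34c-5p had 0.400 on AL and 1.15 on CR, at least 1.20-fold higher. MiR-449a-5p, which carries the same seed and is known from multiciliated epithelium and testis, had 0.0109 on AL and 0.132 on CR, both below the floor. MiR-34a-5p, the member best known from the ageing heart, was above the floor on both arrays and did not follow them, with 1.99 on AL and 1.75 on CR (1.14-fold lower). All 3 miRNAs printed above share the seed GGCAGUG while their remaining bases differ: miR-34a-5p and miR-449a-5p differ at 7 aligned positions. Of these 3, miR-34a-5p alone was detected on both arrays, so no median is given for this seed family.

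The other arms of these hairpins stayed within 1.5-fold. MiR-34b-3p was above the floor on both arrays with 2.30 on AL and 1.94 on CR, and miR-34c-3p with 0.974 and 1.03. Their log2 ratios were -0.24 and 0.08. The median of the 7 compared members of the miR-34 list was 0.08, with 3 higher and 0 lower. The 3 called were the 5p arms of miR-34b, miR-34c and miR-449a, of which none was above the floor on both arrays.

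The X-linked testis cluster, a group of rapidly evolving miRNA genes expressed mainly in male germ cells, had the largest share of rises among the 21 lists. The lists were chosen with earlier results of these data known, so this rank is not independent evidence. Of the 36 features of the cluster, 28 were compared. Among those, 18 were higher and 1 lower on CR, with a median log2 ratio of 0.71 against -0.07 for all miRNAs. Of the 625 other miRNAs whose mean signal lay within the range of the cluster, 72 were higher and 61 lower. That range is wide, so the 625 are most of the miRNAs compared and do not match the cluster in distribution of signal. The summed signal of the cluster was 13.6 on AL and 17.1 on CR. Most of it is weak: 7 members exceeded the floor on 1 or both arrays, of which 3 were higher and 0 lower with a median of 0.54. Of these 7, miR-743a-3p, miR-465b-5p, miR-470-5p and miR-201-3p passed through the CR array alone, so the choice itself favours rises, and miR-883b-5p through the AL array alone. The 2 above the floor on both arrays, miR-463-3p and miR-883a-5p, had a median of 0.22, and the 21 below it held the other 15 rises. Of 489 other miRNAs below the floor, 68 were higher and 58 lower.

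MiR-463-3p was above the floor on both arrays, with a signal of 2.30 on AL and 3.59 on CR, 1.56-fold higher. MiR-743a-3p had 0.601 and 1.25, at least 1.30-fold higher, and miR-465b-5p had 0.721 and 1.16, at least 1.22-fold higher. MiR-201-3p, with 0.947 and 1.38, stayed within 1.5-fold. The brightest member, miR-883a-5p, went the other way, with 4.01 on AL and 3.49 on CR, and miR-883b-5p had 1.07 and 0.889, so the direction was not shared by all detected members.

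Members of near-identical sequence were compared next. MiR-465b-5p and miR-465c-5p differ by the single substitution U13C, counted from 1 at the 5′ end, and both were called higher, the latter with 0.104 on AL and 0.221 on CR. MiR-465a-5p shares their seed and differs from miR-465c-5p by A14G and G20C in the aligned part, and had 0.270 on AL and 0.261 on CR. MiR-743b-3p, which differs from miR-743a-3p by C9U, A12U and G18A, had 0.240 and 0.271. The signals of miR-465c-5p, miR-465a-5p and miR-743b-3p were below the floor on both arrays. Among the weakest members, miR-471-3p had 0.00334 on AL and 0.143 on CR, miR-880-5p 0.0209 and 0.159, and the only fall was that of miR-880-3p, from 0.0568 to 0.0259.

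The members were also grouped by position, which uses the same ratios again. When RefSeq miRNAs less than 10 kb apart were joined, 24 compared members of the cluster fell into a single run of chrX:66776760-66839121 with a median of 0.74, and 16 of them were higher and 1 lower. Of 22 such runs with at least 4 compared miRNAs, 2 had higher medians, and none of their members was above the floor. The 4 miR-302 members of chr3:127545238-127545687, which are known from embryonic stem cells, had a median of 1.05 and were all called higher, with CR signals of at most 0.106. MiR-302a-3p, the only miR-302 member above the floor, had 1.498 on AL and 1.24 on CR and was not called. The 4 members of the miR-183 cluster (chr6:30165962-30169732), known from sensory organs, had a median of 0.76, and 3 were higher.

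**Figure D2:**
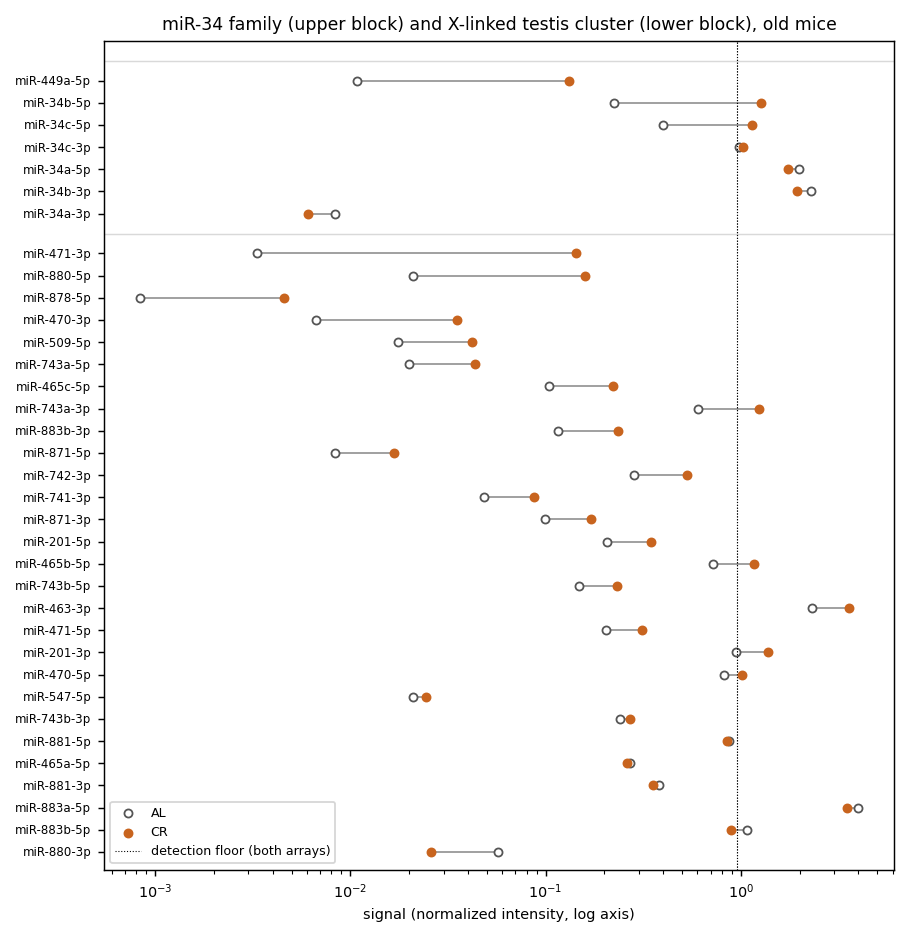
Signals on AL (open) and CR (filled) are plotted on a log axis for the 28 compared members of the X-linked testis cluster and the 7 of the miR-34 list, with the detection floors of both arrays as dotted lines. In most members of the cluster the CR signal lies to the right of the AL signal, but few reach the floor, and miR-34b-5p and miR-34c-5p cross it.

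Outside these groups 2 further miRNAs above the floor were called higher. MiR-138-2-3p, the passenger arm of a miR-138 hairpin, had 1.15 on AL and 2.37 on CR, 2.06-fold higher, and was above the floor on both arrays. The guide arm miR-138-5p, which is shared by 2 hairpins, had 0.0618 and 0.0587. MiR-3070-5p had 0.921 and 1.44, at least 1.504-fold higher. Within 1.5-fold, miR-99b-5p had 0.791 on AL and 0.990 on CR and miR-100-5p 1.05 and 1.28. Both share a seed with miR-99a-5p, which had 2.81 and 2.61 and differs from miR-100-5p by U16A alone.

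Among muscle miRNAs 0 of 17 were called higher and 4 lower on CR, with a median log2 ratio of -0.25. Over all 714 miRNAs the shares were 12.6% higher and 9.94% lower. Above the floor on 1 or both arrays were 9 muscle features, with 0 higher, 2 lower and a median of -0.25. All 204 miRNAs above it had a similar median of -0.23, with 3.43% higher and 5.88% lower. MiR-133b-3p, which regulates muscle growth and ion channel genes, had a signal of 44.4 on AL and 25.1 on CR, 1.77-fold lower, the largest fall above the floor. MiR-133a-3p had 30.7 and 17.8, 1.73-fold lower. The other arm of that hairpin, miR-133a-5p, was also above the floor and had 5.70 and 4.78, within 1.5-fold.

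The remaining cardiac miRNAs stayed within 1.5-fold. MiR-1a-3p, which is made from the same transcripts as miR-133a, had 20.4 on AL and 17.9 on CR. MiR-208a-3p, encoded in the gene of the alpha myosin heavy chain, had 28.7 and 24.3, and miR-208b-3p, encoded in that of the beta chain, which the adult mouse ventricle uses little, had 0.603 and 0.544, below the floor. MiR-499-5p had 7.06 and 6.39. The 4 muscle features called lower were both miR-133 guide arms and 2 features of the miR-486 passenger arm, the latter below the floor. The calls of both miR-133 miRNAs ended under quantile and cyclic loess normalization and after spike-in scaling.

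The red blood cell list had 3 rises and 5 falls among 10 features, with a median log2 ratio of -0.40. Over all 714 miRNAs 12.6% were higher and 9.94% lower. MiR-451a had a signal of 28.8 on AL and 17.1 on CR, 1.68-fold lower, and miR-144-3p, made from the same transcript, had 5.59 and 3.60, 1.55-fold lower. Both calls ended under quantile and cyclic loess normalization, with log2 ratios between -0.39 and -0.26, and after spike-in scaling, with -0.22 for miR-451a and -0.11 for miR-144-3p. MiR-144-5p had 0.244 and 0.140. Taking miR-451a, miR-144 and miR-486 alone, 5 of 6 features were called lower with a median log2 ratio of -0.77, a grouping made after the values were seen. The feature not called was that shared by miR-486a-5p and miR-486b-5p, with 2.51 on AL and 2.25 on CR, above the floor on both arrays. Of the 5 falls, miR-144-5p and both features of the miR-486 passenger arm were below the floor. The 3 rises of the list belonged to the miR-183 cluster and were all below the floor. Whether fewer red cells in the tissue or less RNA per cell lowers such a signal cannot be told apart in a pool of ventricle.

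MiR-126a-3p, the endothelial miRNA of the Egfl7 gene, was the brightest miRNA compared and had 52.4 on AL and 34.2 on CR, 1.53-fold lower. Its other arm miR-126a-5p had 9.50 and 8.03. All 15 of the brightest miRNAs and 47 of the 50 brightest were lower on CR, the median log2 ratio of the 50 being -0.26, so single falls among bright miRNAs stand beside a shift of the whole class. MiR-690 (22.1 on AL and 13.6 on CR) and miR-3963 (42.6 and 28.2) were the other bright miRNAs called lower. Below them, miR-3473a had 5.38 and 3.36, miR-669c-3p 3.43 and 2.27, and miR-574-5p 0.979 and 0.591, at least 1.02-fold lower. Of the 12 falls above the floor, 2 kept their calls after quantile or cyclic loess normalization (let-7a-5p and miR-574-5p), 5 in whole steps and 9 once the viral median was added. After spike-in scaling 0 of the 12 kept the call, and all 12 were still lower on CR.

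The let-7 family, which represses growth and cell cycle genes, had 0 rises and 2 falls among 9 members. All 9 were above the floor on both arrays, with a median log2 ratio of -0.25. That median is near the -0.24 of all 177 miRNAs above the floor on both arrays, of which 1.13% were higher and 6.21% lower. Let-7a-5p had 2.13 on AL and 1.22 on CR, 1.75-fold lower, and let-7i-5p had 2.78 and 1.84, 1.51-fold lower. The others were spread between -0.30 for let-7e-5p and 0.07 for let-7f-5p.

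Sequence similarity did not order these ratios. Let-7f-5p differs from let-7a-5p by G12A alone and had 1.39 on AL and 1.46 on CR. Let-7c-5p differs from it by A19G alone and had 2.94 and 2.70, and let-7e-5p differs by U9G alone and had 1.78 and 1.45. Let-7i-5p, the other member called lower, differs at 4 positions (G12U, A17G, U18C and A19U). The passenger arms of let-7 hairpins were all below the floor, with a median of 0.05 over 8 features.

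**Figure D3:**
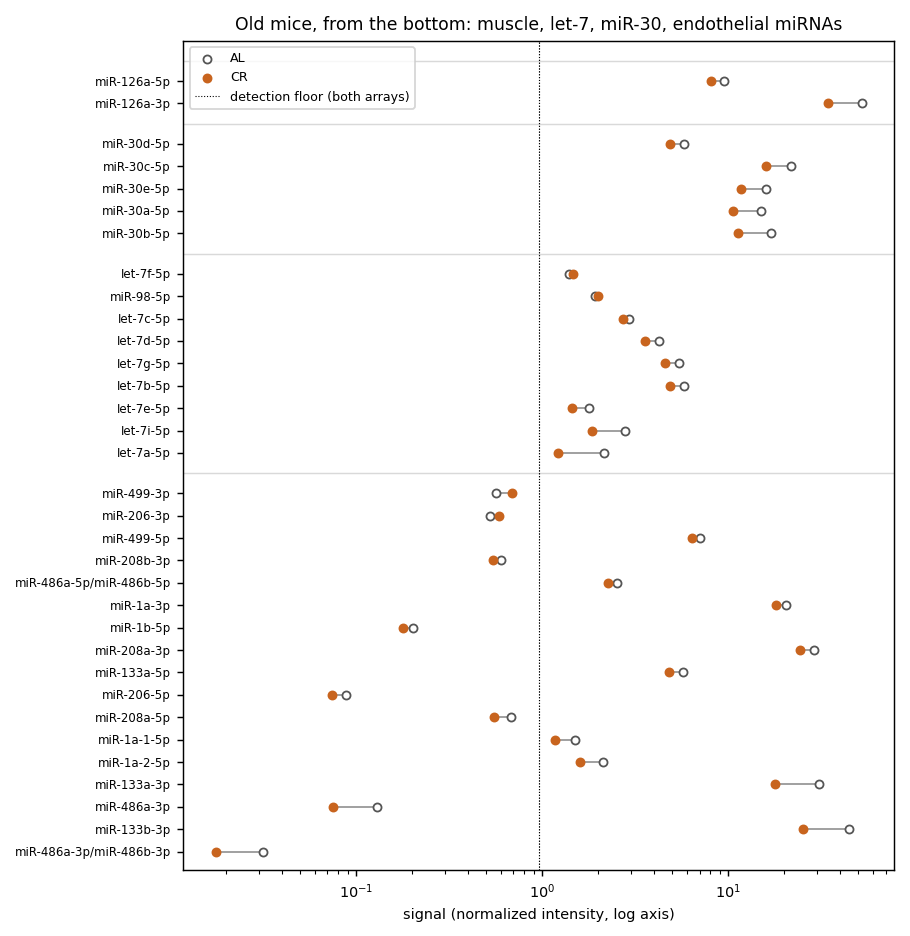
Signals on AL (open) and CR (filled) are plotted on a log axis for muscle, let-7, miR-30 and endothelial miRNAs of old mice, with the detection floors as dotted lines. The CR signal lies to the left of the AL signal in 15 of 17 muscle features, in 7 of 9 let-7 features and in all 5 miR-30 features, and the medians of these lists lie above 0 after spike-in scaling.

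The miR-30 family, abundant in cardiomyocytes and known to repress matrix and autophagy genes, had the lowest median of the lists on the deposited scale, -0.45, although none of its 5 members was called. Their log2 ratios lay between -0.58 and -0.24, with 16.9 on AL and 11.3 on CR for miR-30b-5p, just within the threshold, and 5.74 and 4.87 for miR-30d-5p. By seed the same family (GUAAACA, 3 members with a sequence) was lowest of 17 seed families of 3 or more members, followed by AAAGUGC of miR-17-5p and its relatives (-0.28 over 6) and CCCUGAG of miR-125 and miR-351 (-0.27 over 3). After quantile normalization the median of the miR-30 list was 0 and after spike-in scaling 0.08, so its place below 0 depends on the scaling.

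Fibrosis miRNAs were nearly level. Of 18 compared, 0 were higher and 1 lower with a median of -0.18, and the 11 above the floor had a median of -0.13 and no call. MiR-21a-5p, a fibroblast miRNA that rises in the failing heart, had 2.35 on AL and 2.51 on CR. The 3 guide arms of miR-29, which repress collagen genes, had log2 ratios from -0.20 to 0.00. Among the 20 white blood cell and inflammation miRNAs 3 were higher and 0 lower, all 3 below the floor, and the median was 0.12. The share of rises was near the 12.6% of all 714 miRNAs. MiR-142a-3p, found in all leukocytes, had 5.60 and 4.42, and miR-146a-5p, induced by NF-kB, 0.442 and 0.474.

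Other family lists showed few calls, beside 12.6% higher and 9.94% lower over all 714 miRNAs. The miR-378 family, of which miR-378a is encoded in the gene of PGC-1 beta, had a median of -0.33 and no call among 4. The miR-23/24/27 clusters had no call among 10 and a median of -0.20. In the miR-15 family 1 of 6 was higher with a median of -0.12, and in the miR-17-92 list, with its paralogous clusters, 2 of 17 were higher with a median of -0.08.

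Among the large clusters, the Sfmbt2 cluster, whose members are near-identical repeats in an intron of that imprinted gene, had 0 rises and 5 falls among 63 features. Over all 714 miRNAs 12.6% were higher and 9.94% lower. The median of the Sfmbt2 cluster was -0.31, and its 28 members above the floor had a median of -0.36, all of them lower on CR. All 204 miRNAs above the floor on 1 or both arrays had a median of -0.23 and an upper quartile of -0.03. Because probes of the Sfmbt2 cluster can share targets, its values are not independent readings. The imprinted Dlk1-Dio3 cluster had 11 rises and 5 falls among 54, with a median of 0.11. The 11 members above the floor had a median of -0.06 and no call. MiR-3070-5p, called higher above, lies in the run of chr12:109563744-109595384 in this region but was not on the list. Below the floor, miR-487b-3p had 0.00668 on AL and 0.0457 on CR, miR-380-5p 0.0701 and 0.250, and miR-376c-5p 0.0159 and 0.00762. Among members above the floor, miR-673-3p had 1.51 and 1.07 and miR-433-5p 2.83 and 3.19. The stem cell clusters had 6 rises and 1 fall among 14 with a median of 0.30, all of these calls below the floor, and the 3 members above it (miR-290a-5p, miR-294-5p and miR-302a-3p) had a median of -0.01. Markers of other tissues were weak or absent: miR-122-5p of liver and miR-200a-3p of epithelium had no value on either array, miR-124-3p of neurons had 0.102 and 0.114, and no member of the miR-200 list was above the floor or called. The liver and neuron list had 2 rises and 1 fall among 15, with 1 member above the floor and a median of 0.12.

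**Figure D4:**
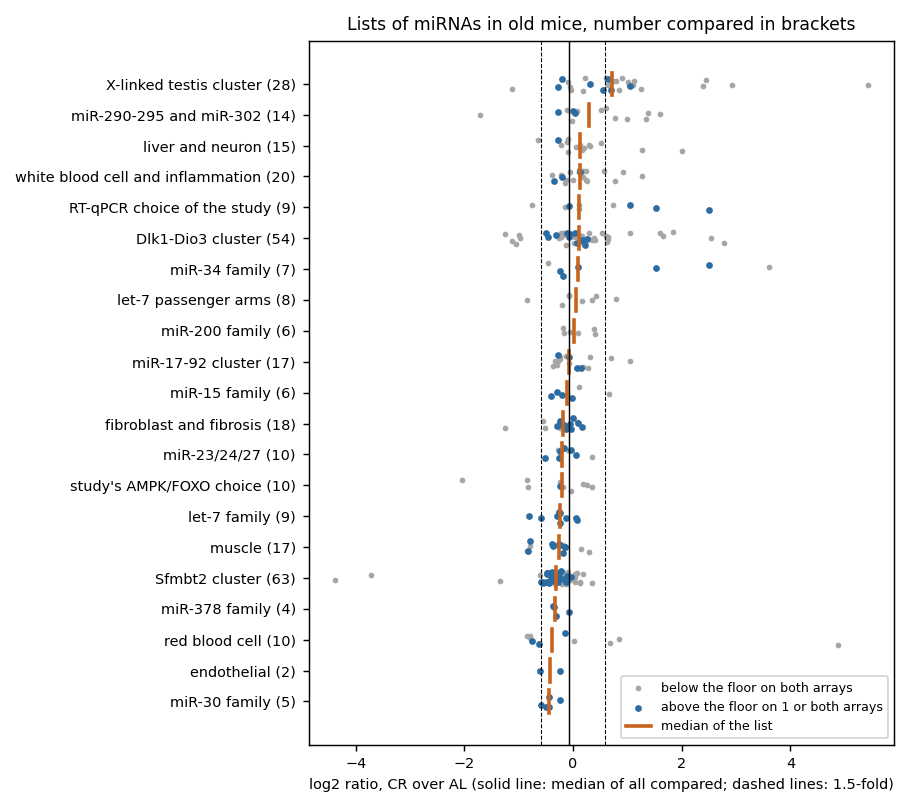
The log2 ratio of CR to AL is plotted for every compared member of 21 lists, sorted by the median of the list, with members above the floor in blue, the median of all 714 as a solid line and 1.5-fold as dashed lines. The X-linked testis cluster has the highest median (0.71) and the miR-30 family the lowest (-0.45) on the deposited scale, and all medians lie above 0 after spike-in scaling.

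A pair of lists was chosen by the study on these arrays, so their direction here is not independent evidence. Of the 9 miRNAs it took to RT-qPCR, 4 were higher (miR-34b-5p, miR-34c-5p, miR-138-2-3p and miR-201-5p) and 1 lower, miR-1892, with 0.101 on AL and 0.0595 on CR. MiR-146b-5p (0.430 and 0.465), miR-19a-3p (1.10 and 1.04) and miR-2137 (0.385 and 0.347) stayed within 1.5-fold. The paper describes miR-19a-3p, miR-146a-5p and miR-146b-5p as upregulated by CR in old mice. On these arrays their log2 ratios were -0.08, 0.10 and 0.11, so none was called higher. The RT-qPCR values of the study were not compared here. Of the 10 miRNAs it gave as predicted to target AMPK or FOXO genes, 0 were higher and 3 lower, miR-448-3p, let-7b-3p and miR-30d-3p, all with both signals below 0.07. The single member above the floor was miR-30d-5p.

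Below the floor, 3 miRNAs with wide ratios and more than 100 steps on an array were picked out after their values were seen. MiR-202-5p, a miRNA of the gonads, had 0.0142 on AL and 0.247 on CR, which are 17 and 324 steps. MiR-877-5p, cut from an intron without the usual nuclear processing, had 0.412 on AL and 0.143 on CR, the latter 187 steps. MiR-582-5p had 0.124 and 0.00152. The passenger arms miR-221-5p (0.225 and 0.424) and miR-222-5p (0.0134 and 0.0320) were called higher, while the guide arms miR-221-3p (0.899 and 0.983) and miR-222-3p (0.711 and 0.809) were not.

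The arms of a hairpin were compared where both had a value. Of 156 such hairpins, 90 (57.7%, 95% exact binomial interval 49.5% to 65.6%) had both arms on the same side of the median of all miRNAs. Both arms were called higher in 7 hairpins (miR-202, miR-302b, miR-471, miR-654, miR-743a, miR-760 and miR-871) and lower in 1, miR-144. The interval covers counting only and treats hairpins as independent, which clustered hairpins are not. In 3 hairpins the arms were called in opposite directions: miR-292a (5p 0.0309 on AL and 0.0800 on CR, 3p 0.0351 and 0.0107), miR-3109 (5p 0.0342 and 0.0709, 3p 0.0267 and 0.0114) and miR-880. All 6 arms were below the floor. In 14 hairpins both arms exceeded the floor on 1 or both arrays, and 10 of these (71.4%, interval 41.9% to 91.6%) had both arms on the same side. The cut was the median of all miRNAs, -0.07, while the 204 miRNAs above the floor had a median of -0.23. Most of these lie on one side of the cut, so 71.4% is not comparable with 57.7%. In miR-34b and miR-34c the 5p arm was below the floor on AL, so no difference of arms is given. In the other 12 the arms differed by at most 0.54 on the log2 scale.

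**Figure D5:**
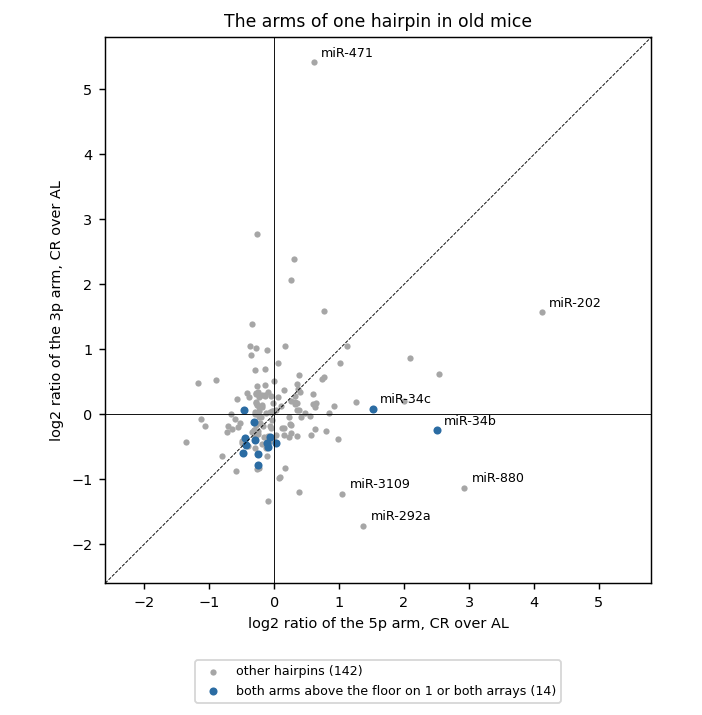
For 156 hairpins of old mice the log2 ratio of the 3p arm is plotted against that of the 5p arm, with the 14 hairpins whose arms both exceeded the floor on 1 or both arrays in blue and equality as a dashed line. Most blue points lie below 0 on both axes, and the points of miR-34b and miR-34c, whose 5p arms were below the floor on AL, lie to the right.

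Among miRNAs above the floor, features that the comparison did not use showed little relation to the median ratio. Above the floor the median log2 ratio in 4 classes of GC content of the mature sequence was -0.21, -0.20, -0.17 and -0.19 from the lowest class to the highest. The 5p and 3p arms above the floor had medians of -0.21 and -0.23. The 39 miRNAs above the floor whose names carry no arm had a median of -0.27 and 4 falls.

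The same miRNAs at other ages are given as values, since each age has a single pair of arrays. The floors lay at 1.86 on AL and 1.68 on CR in young mice and at 1.76 and 1.29 in middle-aged mice, higher than in old mice. They rest on 17 and 19 viral features with a value in young mice and on 11 and 18 in middle-aged mice. Floors set by so few features are not strictly comparable between arrays. Of the 7 rises above the floor in old mice, 0 exceeded it on both young arrays and 1, miR-463-3p, on both middle-aged arrays. The values of the others are given without a fold. MiR-34b-5p had 0.238 on AL and 0.295 on CR in young mice and 0.00469 and 0.309 in middle-aged mice. MiR-34c-5p had 0.430 and 0.542 in young mice and 0.0860 and 0.413 in middle-aged mice. All of these lay below the floors of their arrays. MiR-138-2-3p had 0.226 and 0.145 in young mice and 0.948 and 2.88 in middle-aged mice.

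MiR-463-3p had 1.88 on AL and 0.627 on CR in young mice and 3.52 and 6.73 in middle-aged mice, and miR-743a-3p had 0.404 and 0.298, then 0.462 and 0.912. Of the 12 falls above the floor, 8 exceeded it on both young arrays, with 0 higher and 4 lower there. On both middle-aged arrays 10 exceeded it, with 0 higher and 2 lower. The shares called over all miRNAs detected at those ages are not given here, so these counts stand without a background. MiR-133b-3p was lower on CR at each age, with 30.5 and 19.4 in young mice and 68.7 and 39.0 in middle-aged mice. MiR-126a-3p had 25.3 and 15.0 in young mice but 52.9 and 51.6 in middle-aged mice. Let-7a-5p had 1.77 and 1.13 in young mice, below the floors, and 4.51 and 3.84 in middle-aged mice. Differences between the ages were not tested.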

How the data were processed

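Ventricular RNA pooled from 6 mice per group was hybridized to 1 array per group (6 arrays). Per the study's methods 1 µg of RNA carried the Hy3 label, and GenePix Pro 6.0 read the scanned miRCURY LNA arrays (version 18.0). The authors deposited normalized intensity values. How they were normalized or corrected for background is not given in sources used here. In each array all values were whole multiples of a step (within 0.02 of a step). A second table held identical values. Each mouse feature valued on both old arrays gave a log2 ratio (CR over AL), called at 1.5-fold. IDs were unique, so nothing was averaged. The floor was the 95th percentile of viral features, 20 on AL and 19 on CR. Sequences and positions came from RefSeq (GRCm38.p6). Members and the 21 lists were chosen with earlier results of these data known. Named were list members, the 15 largest rises and falls above the floor, the 15 brightest, members of the seed families farthest from the median (5 each way) and arms called in opposite directions; miR-582-5p, miR-202-5p, miR-877-5p and miR-138-5p were chosen after their values were seen. Alternatives were both floors, quantile and cyclic loess normalization (3 iterations), division by the median, spike-in scaling, the viral median as background, the second table, the handling of repeated IDs, a 2-fold threshold and, added after seeing the data, values in whole steps and a minimum of 60 steps. The arithmetic of the calls was checked on simulated data, which held no replicate error of these arrays. Python 3.11.15, numpy 2.4.6, pandas 2.3.3, R 4.3.3 and limma 3.58.1 were used.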

Additional observations from a re-analysis of the deposited data

Results flagged for a closer look

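MiR-463-3p was called in opposite directions in old and young mice. In old mice it was above the floor on both arrays, with a log2 ratio of CR to AL of 0.64. In young mice the AL signal of 1.88 was just above the floor of 1.86 and the CR signal of 0.627 was below its floor of 1.68, so it was at least 1.12-fold lower. The difference was not tested, since each age has 1 array per group.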

How the results depend on the processing

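With 1 array per group, only the processing could be varied, and no paired analysis was possible because no group has a second replicate. The 90 rises and 71 falls became 281 and 23 after spike-in scaling, 26 and 12 once the viral median was added, 7 and 12 where 1 or both arrays exceeded the floor, 2 and 11 where both did, 57 and 35 with at least 60 steps on 1 array, and 45 and 26 at 2-fold. Quantile normalization gave 72 and 80, cyclic loess 81 and 71. The median of all miRNAs rose to 0.46 after spike-in scaling. That of the X-linked testis cluster was 1.24 after spike-in scaling. It fell below the log2 threshold of 0.58 above the floor on both arrays (0.22), above it on 1 or both arrays (0.54) and with the viral median added (0.48). Over the other alternatives it lay between 0.63 and 0.85. The arms lay on the same side in 57.7% of hairpins, or in 71.4% where both were above the floor, shares that are not comparable. Signs of called miRNAs turned for miR-3963 under quantile normalization (0.066) and, with the viral median added, for miR-292a-3p (0.012), miR-3109-3p (0.10) and the feature shared by miR-486a-3p and miR-486b-3p (0.10). Of 49 called miRNAs named here, 15 lost their call after spike-in scaling, 14 each after quantile and cyclic loess normalization, 26 with the viral median and 7 in whole steps. The causes were not tested.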
